A study of Mus musculus with 15 samples.

Results

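Retinoid synthesis, binding and response genes were followed across 5 sorted mouse cell populations. The 8 genes were named by symbol: Aldh1a1, Aldh1a2, Aldh1a3, Rdh10, Rbp4, Crabp1, Stra6 and Rarb. Of these, 6 were in the expression table among 10222 gene symbols, carried by 7 RefSeq transcripts. Crabp1, a cytoplasmic retinoic acid-binding protein, and Stra6, the cell surface receptor for retinol-binding protein, were absent from the table that was analysed and have no value here. All 6 genes in the table passed the filter on low values in each comparison.

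Retinol (vitamin A) travels in blood bound to Rbp4. Inside cells it is oxidized to retinaldehyde, for which Rdh10 is a main enzyme, and the retinaldehyde dehydrogenases encoded by Aldh1a1, Aldh1a2 and Aldh1a3 oxidize retinaldehyde irreversibly to retinoic acid. Retinoic acid binds nuclear receptors, among them the product of Rarb, which is itself a classic retinoic acid target gene, and is cleared by Cyp26 enzymes. Aldh1a2 is known from mesenchyme and mesothelium, and Aldh1a1 from epithelia including airway.

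RNA came from C57BL/6 mice that carry an Il33-citrine reporter, heterozygous in the study, so that all 5 populations share this allele and none is from a mouse without it. White adipose tissue (WAT) gave Il33-citrine+ and Il33-citrine- mesenchymal stromal cells (Il33+ and Il33- WAT-MSC), labelled mesenteric, and CD31+ endothelial cells. Lung gave Il33-citrine+ stromal cells (lung Il33+ MSC) and EpCAM+ epithelial cells. The study gated the stromal cells as CD45-EpCAM-CD31-PDGFRα+CD34+, and every population was sorted directly from naive tissue and measured in 3 libraries, 15 in all. The labels give no age and do not say whether animals were pooled or whether replicates are separate mice, so p-values measure the spread between these libraries. The citrine sort separates cells by activity of the Il33 locus, and the lung was represented by Il33+ stromal cells alone.

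Levels are RPKM (reads scaled to transcript length and to the mapped reads of the library), so genes can be compared per length. Each library had 42711843 to 60773158 alignments, and the counts behind single values were not used here, so no counting interval is given. Differences are on the scale of log2(RPKM + 1), which understates changes of low genes, and were tested with limma, with Benjamini-Hochberg adjustment over all genes tested and a threshold of 0.05. The 14 stromal markers summed to 5340 to 10900 RPKM in the MSC libraries, 2440 to 5090 in endothelial libraries and 186 to 296 in epithelial libraries. The 12 endothelial markers summed to 725 to 863 RPKM in endothelial cells and at most 83 in MSC, and the 13 lung epithelial markers to at least 164000 RPKM in epithelial cells and at most 574 in lung Il33+ MSC. The endothelial libraries carried stromal transcripts at a median of 30.3, 35.3 and 65.7% of the Il33+ WAT-MSC level in replicates 1, 2 and 3, and replicate 1 stood apart from the other two in several genes below.

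Across the 5 populations, the 3 retinaldehyde dehydrogenases and Rbp4 varied beyond the spread of replicates, while Rarb and Rdh10 did not pass (limma F test, adjusted p = 1.14e-07 for Aldh1a1, 3.16e-06 for Aldh1a2, 3.79e-06 for Aldh1a3, 0.00119 for Rbp4, 0.0713 for Rarb and 0.286 for Rdh10). Of all genes tested, 42.7% passed the same test, against which the 4 of 6 are to be read. The outcome of the F test for Rarb depended on the processing. Its adjusted p was 0.0318 with a lane covariate, 0.0459 with median-ratio scaling and 0.438 with its most abundant transcript. With a library left out it ranged from 0.0404 to 0.199.

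**Figure D1:**
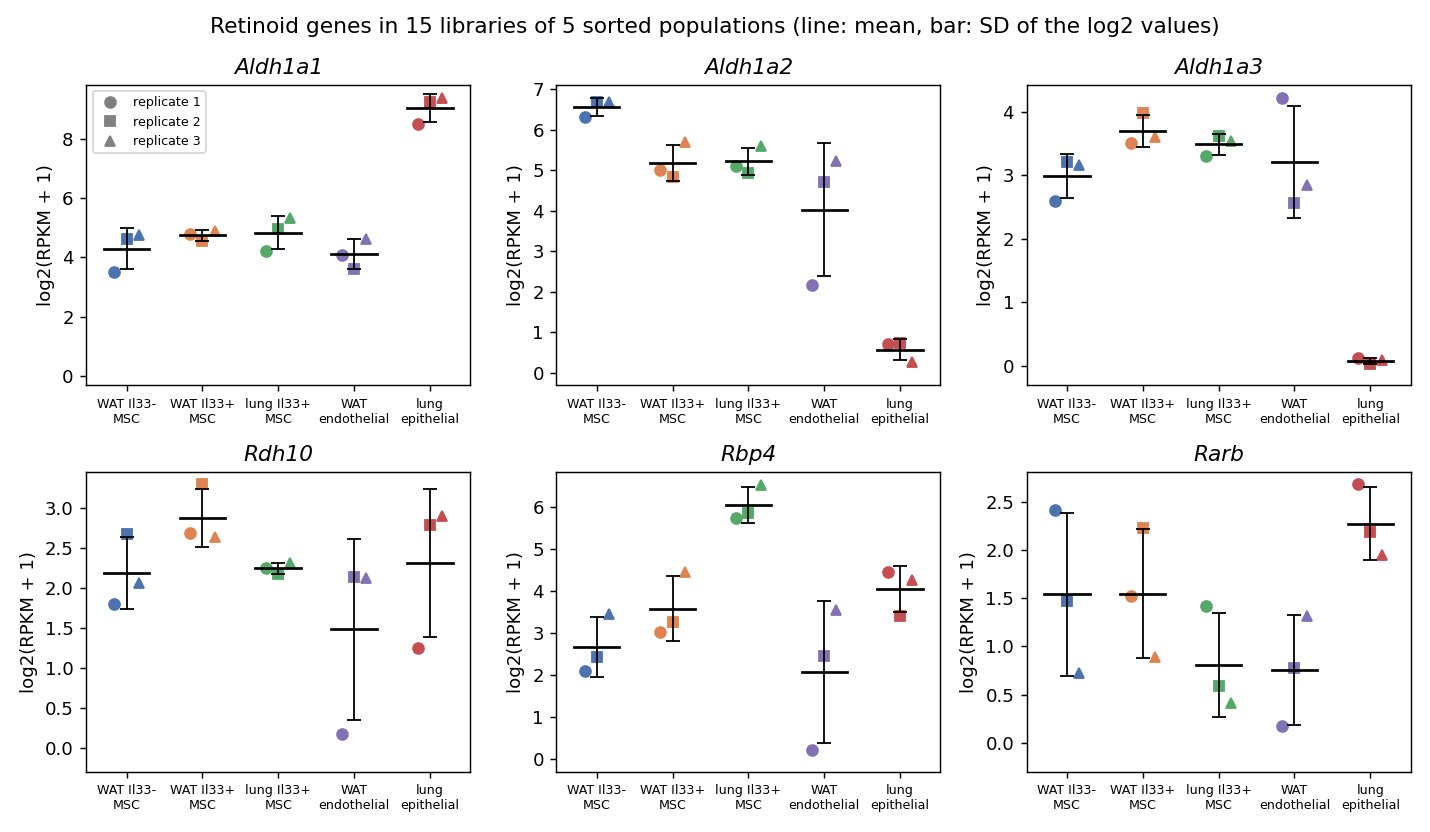
Each panel plots log2(RPKM + 1) of a retinoid gene in 15 libraries of 5 sorted populations, with points for replicates, a line for the mean and a bar for the SD (n = 3). Aldh1a1 was far higher in lung epithelial cells, where Aldh1a2 and Aldh1a3 lay near 0, and Rbp4 was highest in lung Il33+ MSC.

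Aldh1a1 and Aldh1a2 went in opposite directions between lung epithelial cells and the other populations. Aldh1a1 (ENSMUSG00000053279, chr19:20492715-20643465, plus strand, GRCm38) was measured as a transcript that starts at 20601961, well inside the gene's annotated span. Aldh1a2 (ENSMUSG00000013584, chr9:71215789-71296243, plus strand) and Aldh1a3 (ENSMUSG00000015134, chr7:66390890-66427517, minus strand) were each measured as 1 transcript. The 250 bases before the RefSeq start of the measured Aldh1a1 and Aldh1a2 transcripts (GRCm38.p6, chr19:20601718-20601967 and chr9:71215539-71215788, both plus strand) are printed to show how unlike these promoters are, with CCAAT, a common promoter motif, in capitals.
Aldh1a1: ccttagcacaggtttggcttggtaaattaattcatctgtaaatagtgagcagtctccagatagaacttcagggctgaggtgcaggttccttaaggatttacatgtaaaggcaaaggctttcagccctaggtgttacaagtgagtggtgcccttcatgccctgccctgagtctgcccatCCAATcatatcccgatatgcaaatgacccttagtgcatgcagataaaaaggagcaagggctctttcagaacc
Aldh1a2: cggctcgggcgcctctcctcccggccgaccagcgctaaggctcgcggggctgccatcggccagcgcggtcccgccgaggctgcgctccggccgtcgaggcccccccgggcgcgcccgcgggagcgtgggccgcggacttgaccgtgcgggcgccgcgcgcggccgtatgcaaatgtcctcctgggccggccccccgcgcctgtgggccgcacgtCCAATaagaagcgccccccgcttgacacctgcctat
The Aldh1a1 sequence had a GC content of 46.4% with 1 CpG, and the Aldh1a2 sequence 77.6% with 40 CpGs. CCAAT, searched on both strands, occurred in 37.4% of all 32851 RefSeq promoter windows of 300 bases (250 before to 50 after the start), whose median GC content was 52.7%. A link of these sequences to the levels was not tested.

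In lung epithelial cells Aldh1a1 was at 362.86, 606.13 and 666.65 RPKM in the 3 libraries, and its mean ranked 19 among all genes of that population. Lung Il33+ MSC were at 17.72, 30.12 and 38.87 RPKM. In WAT the values were 26.76, 22.48 and 28.70 RPKM in Il33+ WAT-MSC, 10.31, 23.45 and 26.18 in Il33- WAT-MSC, and 15.86, 11.31 and 23.85 in endothelial cells. No epithelial library overlapped any other population, and the 4 other populations overlapped each neighbour in the order of means. Aldh1a1 was lower in Il33+ WAT-MSC than in epithelial cells by a log2 difference of -4.30 (SE 0.26, adjusted p = 2.23e-06), and lower in lung Il33+ MSC by -4.21 (SE 0.33, adjusted p = 8.97e-06). Both held within lanes, at -3.83 and -4.42 and at -4.28 and -4.18 in lanes 1 and 2. Between 18 and 18.5% of all genes tested were called lower in these comparisons.

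The 13 lung epithelial markers were also set against their epithelial means in the lung Il33+ MSC libraries. Scgb1a1, the club cell secretoglobin, stood there at 0.0399 to 0.27% and Cyp2f2, a club cell P450, at 0.466 to 0.857%. Of the alveolar type 2 surfactant genes, Sftpc at 2.24 to 7.48% and Sftpa1 at 1.17 to 4.68% stood higher, while Sftpb at 0.448 to 3.08% overlapped Cyp2f2. Cldn18, a tight junction gene, stood at 2.24 to 5.27%. Aldh1a1 stood at 3.25 to 7.13% of its epithelial mean, a range that 3 of the 13 markers reached. In Il33+ WAT-MSC Aldh1a1 stood at 4.12 to 5.26% of that mean, a range that 2 of the 13 markers reached. Sftpc, Sftpa1 and Cldn18 stood there at most at 0.113, 0.19 and 0.0436%. The part of epithelial RNA in the lung stromal Aldh1a1 level was not tested. Aldh1a7, a close paralog of Aldh1a1, was at a mean of 54.6 RPKM in epithelial cells and at most 1.22 RPKM in any other library. The counting may split reads between Aldh1a1 and Aldh1a7, so the Aldh1a1 level in epithelial cells is uncertain to that extent.

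Aldh1a2, the main retinaldehyde dehydrogenase of embryonic mesenchyme, was highest in Il33- WAT-MSC. Its libraries were at 78.88, 102.68 and 102.42 RPKM there and at 31.30, 27.83 and 50.77 RPKM in Il33+ WAT-MSC, without overlap. The difference was a log2 value of -1.38 (95% interval -1.96 to -0.80, SE 0.26, adjusted p = 0.026). Of 8448 genes tested in this comparison, 0.923% were called higher and 0.651% lower in Il33+ WAT-MSC, and Aldh1a2 was the only 1 of the 6 retinoid genes called. The direction was the same in both lanes, at -1.58 in lane 1 and -1.0 in lane 2, where each arm had 1 library. In 6 of 13 alternative analyses the call was lost with the direction kept, including a joint fit of all 15 libraries (adjusted p = 0.393), no filter on low values (0.0864), and the removal of Il33+ WAT-MSC replicate 1 (0.109) or 2 (0.0922) or of Il33- WAT-MSC replicate 2 (0.108) or 3 (0.0943). In sorted bulk libraries, fewer cells with a transcript and less RNA per cell cannot be told apart.

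Aldh1a2 is also a mesothelial gene. The sum of 13 mesothelial markers was 239, 454 and 426 RPKM in Il33+ WAT-MSC and 149, 227 and 230 RPKM in Il33- WAT-MSC. Most of it was Efemp1, which was at 110 to 142 RPKM in lung Il33+ MSC too, and without it the sums were 50.4, 138 and 169 RPKM and 25.9, 46.6 and 33.5 RPKM. Of 11 markers tested, 2 were higher in Il33+ WAT-MSC and 0 lower, among them Gpm6a with a log2 difference of 2.64 (adjusted p = 0.0174). The mesothelial transcription factor Wt1 was at 9.80, 15.14 and 10.58 RPKM in Il33+ WAT-MSC and 23.61, 13.50 and 10.69 RPKM in Il33- WAT-MSC, with a log2 difference of -0.35 (adjusted p = 0.74). In Il33- WAT-MSC replicate 1, 9 of 13 mesothelial markers were below 0.05 RPKM, against 0 of 13 in the other 5 WAT-MSC libraries. The part of mesothelial RNA in the Aldh1a2 difference was not tested.

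Aldh1a2 overlapped between the Il33+ MSC of both tissues, with lung libraries at 33.55, 29.87 and 47.75 RPKM and a log2 difference of -0.04 (95% interval -0.63 to 0.55, adjusted p = 0.968). Endothelial libraries were at 3.48, 25.05 and 36.68 RPKM, with a spread that covered most of the range. The difference to Il33+ WAT-MSC was 1.15 on the log2 scale (95% interval -0.44 to 2.75, adjusted p = 0.471), and 0.22 (adjusted p = 0.792) without endothelial replicate 1. Beside the stromal transcripts, the 13 mesothelial markers in endothelial replicates 1, 2 and 3 summed to 190, 390 and 465 RPKM (73.8, 258 and 320 RPKM without Efemp1), and Wt1 was at 0.75, 19.67 and 14.26 RPKM. The part of stromal or mesothelial RNA in the endothelial Aldh1a2 level was not tested.

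Epithelial cells had hardly any Aldh1a2, at 0.63, 0.67 and 0.21 RPKM. It was higher than there by a log2 difference of 4.61 in Il33+ WAT-MSC (SE 0.31, adjusted p = 3.8e-06) and 4.65 in lung Il33+ MSC (SE 0.27, adjusted p = 1.9e-06). For comparison, 23% of genes were called higher in Il33+ WAT-MSC and 24.4% in lung Il33+ MSC. With every epithelial library below 1 RPKM, Aldh1a2 passed the filter of both comparisons through the MSC libraries alone.

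Aldh1a3, a retinaldehyde dehydrogenase best known from eye and nasal development, was lower than the other two in every MSC population. It was at 10.31, 14.81 and 11.19 RPKM in Il33+ WAT-MSC and 5.02, 8.23 and 7.98 in Il33- WAT-MSC. These libraries did not overlap, yet the difference of 0.71 on the log2 scale did not pass (95% interval 0.08 to 1.34, adjusted p = 0.363). Lung Il33+ MSC were at 8.86, 11.27 and 10.64 RPKM, which overlapped Il33+ WAT-MSC. In endothelial cells the values were 17.51, 4.92 and 6.18 RPKM, so replicate 1 was the highest of all 15 libraries for Aldh1a3 and the lowest endothelial library for Aldh1a2. Aldh1a3 was nearly undetected in epithelial cells, at 0.09, 0.02 and 0.07 RPKM, a log2 difference of 3.61 to Il33+ WAT-MSC (SE 0.29, adjusted p = 9.72e-06) and of 3.40 to lung Il33+ MSC (SE 0.25, adjusted p = 6.54e-06). Like Aldh1a2, it passed the filter against epithelial cells through the MSC libraries alone.

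Summed per library, the 3 enzymes reached 74.7 ± 13.9 RPKM (SD, n = 3) in Il33+ WAT-MSC, 122 ± 23.8 in Il33- WAT-MSC, 76.2 ± 19.1 in lung Il33+ MSC, 48.3 ± 16.1 in endothelial cells and 546 ± 161 in epithelial cells. Aldh1a2 made up 48.2 ± 6.95% of the sum in Il33+ WAT-MSC, 48.9 ± 6.94% in lung Il33+ MSC and 78.4 ± 4.69% in Il33- WAT-MSC (SD, n = 3), and the 75.0 to 83.7% of the Il33- libraries lay above every Il33+ library of either tissue. Aldh1a1 made up 35.1 ± 3.78, 37.2 ± 6.82 and 15.9 ± 4.34% in the same order and 99.9 ± 0.0781% in epithelial cells. These shares are descriptions and were not tested.

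**Figure D2:**
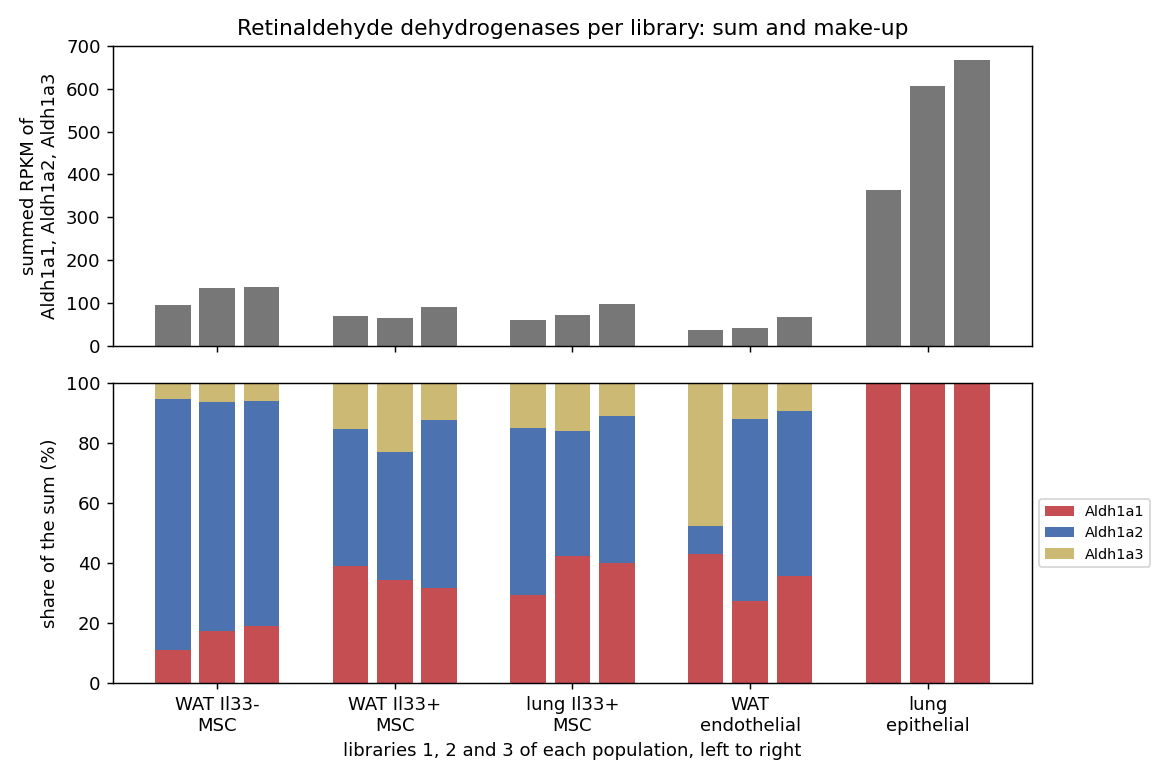
The upper panel plots the summed RPKM of Aldh1a1, Aldh1a2 and Aldh1a3 in each of 15 libraries, and the lower panel the percentage of that sum from each gene. Il33- WAT-MSC were mostly Aldh1a2, Il33+ MSC of WAT and lung were mixed, and epithelial cells were almost wholly Aldh1a1. Endothelial replicate 1 differed from the other two.

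Rdh10 (ENSMUSG00000025921, chr1:16105774-16133734, plus strand), a retinol dehydrogenase of the membrane, was low, and no comparison of it passed. The values were 5.46, 8.83 and 5.24 RPKM in Il33+ WAT-MSC, 2.48, 5.40 and 3.19 in Il33- WAT-MSC and 3.75, 3.50 and 3.97 in lung Il33+ MSC. Endothelial libraries were at 0.13, 3.40 and 3.37 RPKM and epithelial libraries at 1.38, 5.91 and 6.44 RPKM. In both, replicate 1 was far below the other two. Il33+ WAT-MSC did not overlap with lung Il33+ MSC or endothelial cells, but neither difference passed, at 0.63 on the log2 scale (95% interval 0.03 to 1.24, adjusted p = 0.264) and 1.40 (95% interval 0.07 to 2.72, adjusted p = 0.292). Without endothelial replicate 1 the latter was 0.74 (adjusted p = 0.302).

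Rbp4 (ENSMUSG00000024990, chr19:38116629-38125281, minus strand), the secreted retinol carrier known mainly from liver and adipose tissue, was highest in lung Il33+ MSC. The lung stromal libraries were at 52.07, 56.65 and 90.38 RPKM and overlapped no other population. Il33+ WAT-MSC were at 7.08, 8.52 and 20.81 RPKM, and Il33- WAT-MSC at 3.28, 4.38 and 10.00 RPKM. Replicate 3 was the highest library in each of the 3 stromal populations. The log2 difference of Il33+ WAT-MSC to lung Il33+ MSC was -2.46 (95% interval -3.27 to -1.66, SE 0.36, adjusted p = 0.00268), and it was -2.60 in lane 1 and -1.73 in lane 2. Of all genes tested there, 3.5% were called lower and 2.5% higher in Il33+ WAT-MSC, and Rbp4 was the only retinoid gene of the 6 called. The call was kept in all 13 alternatives, with adjusted p up to 0.0403.

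Epithelial cells, at 20.66, 9.64 and 18.04 RPKM, came next for Rbp4 and overlapped Il33+ WAT-MSC. Rbp4 was higher in lung Il33+ MSC than in lung epithelial cells by 2.00 on the log2 scale (SE 0.32, adjusted p = 0.00079), with 1.29 in lane 1 and 2.35 in lane 2. Within WAT the difference between Il33+ and Il33- MSC was 0.91 (95% interval -0.06 to 1.88, adjusted p = 0.469). Endothelial cells were at 0.17, 4.42 and 10.73 RPKM, which is 1.4, 36.4 and 88.4% of the Il33+ WAT-MSC mean, beside stromal markers at 30.3, 35.3 and 65.7%. Markers of other cell types also differed between the Il33+ MSC of WAT and lung, in both directions. The 11 leukocyte markers summed to 12.7 to 33.4 RPKM in WAT and 251 to 295 RPKM in lung, and 7 of 10 tested were lower in WAT and 0 higher. The lung epithelial markers summed to 74.3 to 148 and 210 to 574 RPKM, with 5 of 6 tested lower in WAT and 0 higher. Of endothelial markers, 4 of 9 tested were lower in WAT and 0 higher. Mesothelial markers went the other way, with 9 of 11 tested higher in WAT and 0 lower. Of 7 pericyte and smooth muscle markers tested, 1 was higher and 2 lower in WAT. Between lung Il33+ MSC and epithelial cells, 2 of 11 leukocyte markers were lower in lung Il33+ MSC and 0 higher, beside 18.5% and 24.4% of all genes. The alveolar macrophage gene Chil3 differed there by -0.04 on the log2 scale (limma, adjusted p = 0.916). The part of RNA from leukocytes, epithelial cells or other cell types in the Rbp4 levels was not tested.

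**Figure D3:**
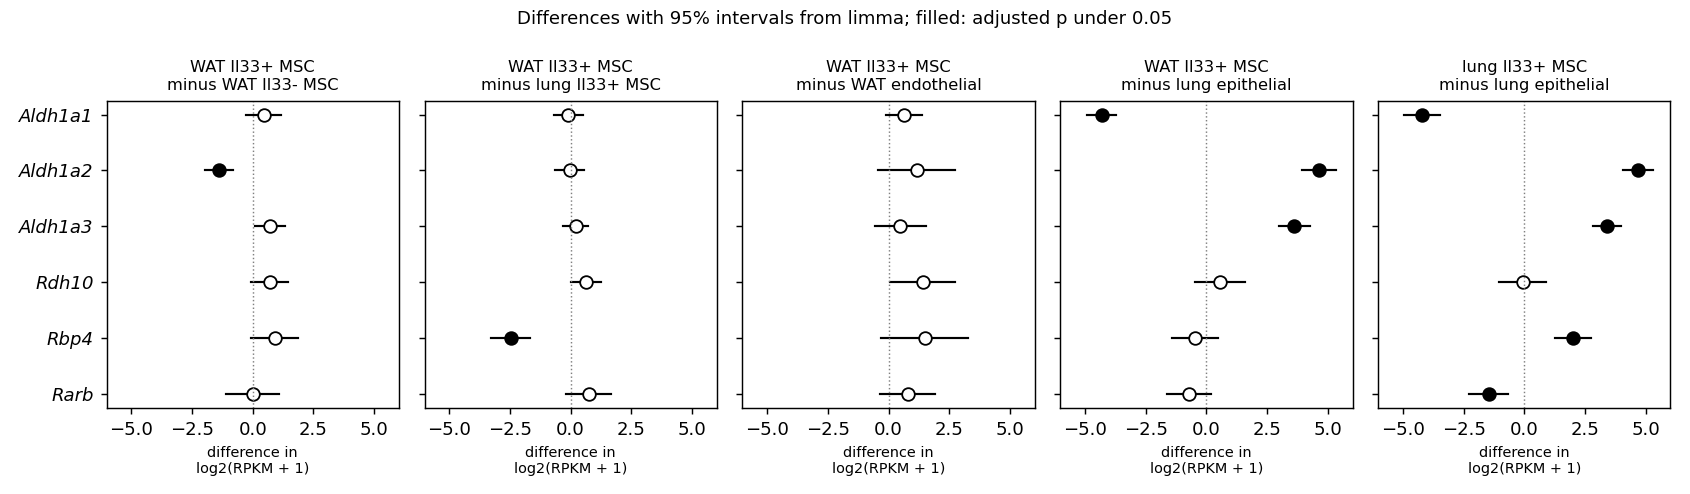
Each panel plots, for a pair of populations, the limma difference in log2(RPKM + 1) of the 6 retinoid genes (first minus second) with its 95% interval, filled where the adjusted p was under 0.05. The called genes were Aldh1a2 alone between WAT-MSC, Rbp4 alone between the Il33+ MSC of WAT and lung, none against endothelial cells, 3 for Il33+ WAT-MSC and 5 for lung Il33+ MSC against epithelial cells.

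Against WAT endothelial cells, 0 of 6 retinoid genes were called by limma, 1 of them (Rdh10) at an unadjusted p under 0.05, where 0.565% of all genes were called higher and 3.34% lower in Il33+ WAT-MSC. This stayed at 0 without endothelial replicate 1. The intervals were wide, and those of Aldh1a2 and Rbp4 (-0.29 to 3.28) left room for differences of several fold.

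Rarb (ENSMUSG00000017491, chr14:16430839-16819156, minus strand) encodes retinoic acid receptor beta. Its promoter is known for a retinoic acid response element, a direct repeat of receptor half-sites spaced by 5 bases (DR5). The DR5 found by letters is in capitals, with the bases around it (GRCm38.p6, chr14:16575507-16575536, minus strand).
Rarb: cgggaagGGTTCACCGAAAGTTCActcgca
The repeat lies 53 to 37 bases before the RefSeq start. The GENCODE transcript paired with the measured ones starts 67 bases before the RefSeq start, so that by this annotation the repeat is at bases 15 to 31 of the transcript. With each half-site read as A or G, G, G or T, then TCA, on both strands, 32 of 32851 promoter windows (0.0974%) held a DR5. None of the windows of Aldh1a1, Aldh1a2, Rbp4, Crabp1 or Stra6 did.

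Rarb was low in all populations. Summed over its 2 transcripts it was at 5.43, 3.54 and 2.85 RPKM in epithelial cells and 1.67, 0.50 and 0.33 RPKM in lung Il33+ MSC, without overlap, and the log2 difference of lung Il33+ MSC was -1.47 (95% interval -2.26 to -0.68, adjusted p = 0.00757). Il33+ WAT-MSC were at 1.88, 3.67 and 0.85 RPKM, Il33- WAT-MSC at 4.34, 1.78 and 0.65 RPKM, and endothelial cells at 0.13, 0.71 and 1.49 RPKM. The WAT-MSC populations overlapped nearly fully, with a difference of 0.01 (95% interval -1.08 to 1.09, adjusted p = 0.998). Compared with epithelial cells, Il33+ WAT-MSC differed by -0.73 (95% interval -1.62 to 0.17, adjusted p = 0.178).

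The split between the Rarb transcripts NM_001289762 and NM_011243 was unsteady among replicates. In epithelial cells NM_001289762 was at 5.42, 0.08 and 0 RPKM and NM_011243 at 0.01, 3.46 and 2.85 RPKM. In lung Il33+ MSC NM_001289762 was at 0, 0.50 and 0 RPKM and NM_011243 at 1.67, 0 and 0.33 RPKM. Both are linked to the same GENCODE transcript, so only the sum was compared between populations.

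**Figure D4:**
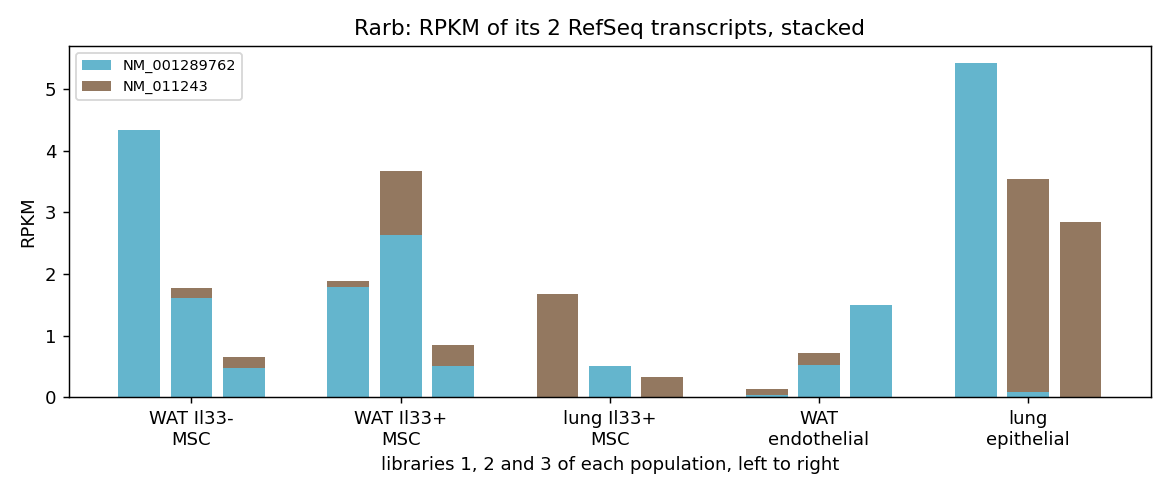
Stacked bars give the RPKM of the 2 Rarb transcripts in each of 15 libraries. Epithelial replicate 1 was nearly all NM_001289762 and epithelial replicates 2 and 3 nearly all NM_011243, while the epithelial sums (2.85 to 5.43 RPKM) lay above all lung Il33+ MSC sums (0.33 to 1.67 RPKM).

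Of 69 other genes of retinoid handling and response, 40 were in the table, and 22 of these (55%) passed the F test over the 5 populations, beside 42.7% of all genes. They comprised 4 genes of uptake, storage and binding, 8 dehydrogenases and reductases of retinol and retinal, 2 of catabolism, 12 nuclear receptors and cofactors, and 14 known retinoic acid targets. Between Il33+ and Il33- WAT-MSC, 0 of 34 tested passed in limma (4 at an unadjusted p under 0.05), and a replicate block let 1 pass. The median difference was -0.16 in the list and -0.01 over all genes.

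Between the Il33+ MSC of WAT and lung, 3 of 34 were higher and 5 lower in WAT, beside 2.5% and 3.5% of all genes. Both catabolic genes were higher in Il33+ WAT-MSC. Cyp26b1, a retinoic acid hydroxylase, was at 4.32 ± 1.78 RPKM in WAT and 0.733 ± 0.465 RPKM in lung (SD, n = 3), a log2 difference of 1.60 (adjusted p = 0.0228), and Cyp2s1, a P450 with reported retinoic acid metabolism, differed by 1.66 (adjusted p = 0.0144). For Cyp2s1, Il33- WAT-MSC at 1.00, 6.26 and 3.78 RPKM overlapped lung Il33+ MSC at 3.48, 1.83 and 4.25 RPKM. For Cyp26b1, Il33- WAT-MSC at 4.55 to 8.48 RPKM did not overlap lung Il33+ MSC. Both retinol-oxidizing alcohol dehydrogenases that passed were lower in WAT. Adh1 was at 42.5 ± 14.1 RPKM in WAT and 122 ± 19.9 RPKM in lung (SD, n = 3), with a log2 difference of -1.53 (adjusted p = 0.00429), and Adh7 differed by -2.48 (adjusted p = 0.00279). Adh7, at 0 to 0.37 RPKM in Il33+ WAT-MSC, passed the filter through the lung Il33+ MSC libraries alone. It was at 3.09 to 9.11 RPKM in lung Il33+ MSC and 4.89 to 8.44 RPKM in lung epithelial cells. The log2 difference between these lung populations was -0.23 (limma, adjusted p = 0.644), against 3.79 for Adh1. Among targets, Tbx5, a transcription factor of lung mesenchyme, differed by -3.63, Hoxa5 by -1.63 and Hoxb4 by -1.27, while Zbtb16 was higher in WAT by 0.98. Tbx5, at 0.01 to 0.02 RPKM in Il33+ WAT-MSC, also passed the filter through the lung Il33+ MSC libraries alone. The counts with all 15 libraries in the fit, and without lung Il33+ MSC replicate 2, were 0 higher and 3 lower each.

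Against endothelial cells, 0 of 36 were higher and 4 lower in Il33+ WAT-MSC, beside 0.565% and 3.34% of all genes, and 3 of these belong to the 4 genes of uptake, storage and binding. Rbp7, a retinol-binding protein known from adipose endothelium, was at 4.63, 9.92 and 21.83 RPKM in endothelial cells and 0.10, 0 and 0.99 RPKM in Il33+ WAT-MSC, and it was listed at 0 in every lung library. Its log2 difference was -3.11 (SE 0.58, adjusted p = 0.0198), and it passed the filter through the endothelial libraries alone. Fabp5, which can carry retinoic acid, differed by -2.96 and Scarb1, a scavenger receptor that takes up carotenoids, by -2.77. The target Tgm2, transglutaminase, differed by -1.48. Without endothelial replicate 1 the same 4 were lower and 1 gene was higher, but the calls fell to 0 without endothelial replicate 2 or without Il33+ WAT-MSC replicate 1.

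Against lung epithelial cells, 10 of 34 were higher and 4 lower in Il33+ WAT-MSC, beside 23% and 18% of all genes. In lung Il33+ MSC 16 of 35 were higher and 5 lower, beside 24.4% and 18.5% of all genes. Scaled by median ratios instead, the counts were 9 and 7 for WAT and 16 and 6 for lung, and the median over all genes moved from 0.174 to -0.146 and from 0.132 to -0.143. Among the 12 listed targets tested, 11 were higher in lung Il33+ MSC and 1 lower, to be read against the same 24.4% and 18.5%. The list was chosen with earlier results of these data known and was not tested as a set. Hoxb5, at 0.04 to 0.84 RPKM in epithelial cells, passed the filter through the lung stromal libraries alone. Foxa1, at 0.02 to 0.25 RPKM in lung Il33+ MSC, passed it through the epithelial libraries alone. Rarb, a known target outside this list, was lower in lung Il33+ MSC, with a log2 difference of -1.47 (limma, adjusted p = 0.00757). Rarres2, which encodes the adipokine chemerin, averaged 159 ± 42.9 RPKM in the lung stromal libraries and 2.60 ± 2.10 RPKM in epithelial cells (SD, n = 3), a log2 difference of 5.62 (adjusted p = 6.64e-06). Hoxb5 (2.76), Tbx5 (2.65), Meis1 (2.51), Hoxb4 (2.04) and Hoxa5 (1.97), all developmental transcription factors, differed in the same direction. The exception among the listed targets was Foxa1, a transcription factor of lung epithelium, at -4.97. Retinoic acid itself was not measured.

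Of 7 dehydrogenases and reductases tested between the lung populations, 1 was higher and 2 lower in lung Il33+ MSC, beside 24.4% and 18.5% of all genes. Adh1 was higher in lung Il33+ MSC by 3.79 on the log2 scale (adjusted p = 2.9e-06). The lower genes, Dhrs3 (-1.07) and Dhrs4 (-0.94), lie outside the rule for named genes and were named after their values were seen. Of the catabolic genes, Cyp2s1 was higher in epithelial cells, at 502 ± 114 RPKM against 3.19 ± 1.24 RPKM (SD, n = 3), a log2 difference of -6.93 (adjusted p = 7.01e-07). For Il33+ WAT-MSC, Adh1 and Cyp2s1 differed from epithelial cells by 2.26 and -5.27. The comparisons share the epithelial libraries.

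**Figure D5:**
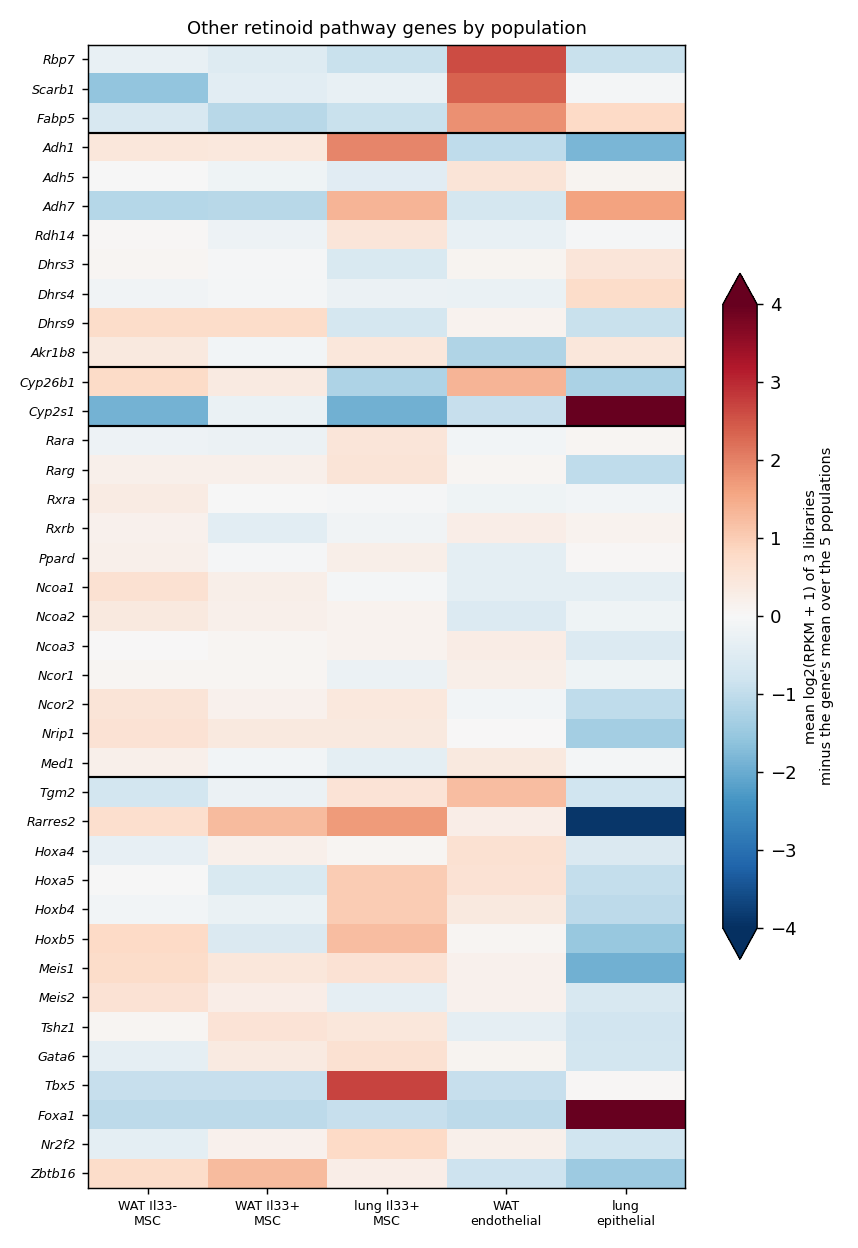
The map shows, for 39 other retinoid genes, the mean log2(RPKM + 1) of 3 libraries in each population minus the gene's mean over the 5 populations, with lines between uptake and binding, dehydrogenases, catabolism, receptors and cofactors, and known targets. Rbp7, Scarb1 and Fabp5 stand out in endothelial cells, Adh1 and Tbx5 in lung Il33+ MSC, and Cyp2s1 and Foxa1 in epithelial cells.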

How the data were processed

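Cells of 5 populations were flow sorted and their RNA was amplified and sequenced. The authors aligned reads with TopHat2 in Partek Flow, to mm10 per the processing notes, and deposited RPKM for 12698 RefSeq transcripts of 15 libraries. RPKM divides by transcript length and mapped reads, so abundant transcripts of a library lower the RPKM of its other genes. Groups, replicate numbers and lanes (8 libraries in lane 1, 7 in lane 2) came from the labels. In WAT, lane 2 held replicate 3 alone.

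RPKM was summed per gene symbol. Genes entered a comparison when 3 or more of its 6 libraries reached 1 RPKM. On log2(RPKM + 1), lmFit and trended eBayes of limma 3.58.1 (R 4.3.3) gave the differences, called at a Benjamini-Hochberg adjusted p under 0.05. An F test used all 15 libraries. The fit was tested on simulated data with 200 changed genes. Of the comparisons, 4 share the Il33+ WAT-MSC libraries. Coordinates are from GENCODE M21, and promoter sequences from RefSeq (GRCm38.p6), where 6 of the 8 genes matched. Tables and figures were made with Python 3.11.15, numpy 2.4.6, pandas 2.3.3 and matplotlib 3.10.9.

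All 8 genes are described. Other retinoid genes were counted, and only those past the threshold were named, the 10 largest per comparison at most, and 1 gene that is not reported here is left out of the text and the map of levels. For each gene the 3 most alike patterns over 15 libraries are named. The genes and lists were chosen with earlier results of these data known. Alternatives changed the model (lane covariate, replicate block, a joint fit of all 15 libraries), the values (median-ratio scaling, a pseudocount of 0.1, no filter, the most abundant transcript in place of the sum) or the libraries (each left out in turn). Their use on the counts of the wider list was added after the data were seen.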

Additional observations from a re-analysis of the deposited data

How the results depend on the processing

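Among the 3 retinaldehyde dehydrogenases, all calls against epithelial cells were kept in all 13 alternatives, as were both calls of Rbp4, and Rarb in lung Il33+ MSC against epithelial cells kept its call in the 12 that could be run, since its most abundant transcript did not pass the filter. The call of Aldh1a2 between the WAT-MSC was kept in 7 of 13. With it, the number of retinoid genes called there went from 1 to 0 with all 15 libraries in one fit, to 0 with no filter, and ranged from 0 to 1 with a library left out. The number of all genes called in that comparison was 133, and 45 with no filter, and 55 to 122 with a library left out, under 1.5 times lower only without Il33- WAT-MSC replicate 1. It was 336 in place of 513 between the Il33+ MSC of WAT and lung with all 15 libraries in one fit, and 261 to 502 with a library left out, the lowest without lung Il33+ MSC replicate 2. Against endothelial cells it was 805 in place of 338 with all 15 libraries, and 131 to 447 with a library left out, the lowest without Il33+ WAT-MSC replicate 1. Of differences that did not pass, Rarb between the WAT-MSC turned from 0.01 to -0.03 with median-ratio scaling and to -0.14 with its most abundant transcript, and ranged from -0.40 to 0.45 with a library left out. Between the Il33+ MSC of WAT and lung, the lane covariate turned Aldh1a1 to 0.10 and Aldh1a2 to 0.12, and leaving out a library gave -0.39 to 0.15 and -0.29 to 0.16. Rarb in Il33+ WAT-MSC against epithelial cells turned to 0.38 with its most abundant transcript and passed at -0.99 (adjusted p = 0.0436) with the lane covariate. Rdh10 in lung Il33+ MSC against epithelial cells ranged from -0.60 to 0.22 with a library left out. Fewer libraries enter when a library is left out, and the cause was not tested for the other changes.

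Deviations from the group means correlated between libraries of the same number at -0.078 to 0.149, not over 0.1 in every pair. Libraries of different numbers were not compared in this way, so these values cannot tell whether the numbers pair the samples. A replicate block gave 232 genes between the WAT-MSC in place of 133, the adjusted p of Aldh1a2 was 0.00692, and no pairwise call of the 6 retinoid genes changed. RPKM with no counts at hand leaves the depth behind low values such as those of Rarb unknown.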

Other observations

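The genes whose levels followed each retinoid gene most closely over the 15 libraries are given as a description, since the libraries fall into 5 populations and share lanes. For Aldh1a1 they were 2410004P03Rik (Pearson r = 0.988), Scgb1a1 (0.983) and Snx25 (0.983). Aldh1a2 was followed most closely by P3h1 (0.980), a collagen prolyl 3-hydroxylase, Pcdhgc3 (0.979) and Fkbp14 (0.978), and Aldh1a3 by Enpp3 (0.974), Gabra3 (0.972) and Bnc2 (0.970). Values were lower for Rdh10 with Hars (0.913), Atp5g2 (0.902) and Srxn1 (0.901), for Rbp4 with Mllt3 (0.911), Srf (0.885) and Gfra2 (0.868), and for Rarb with Sord (0.838), Lyrm2 (0.822) and Tchp (0.821). These were the 3 highest for each gene among 9981 compared.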
